A study of Mus musculus with 27 samples.

Results

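The liver X receptors (LXR) are nuclear receptors, and their binding sites in mouse Kupffer cells were set side by side between a NASH diet and a control diet. The NASH list held 51709 sites and the control list 44463, together 96172 of the 228956 sites in the 6 factor lists of the series. A site was called shared when it overlapped a site of the other list by at least 1 bp. By that rule 15128 sites were NASH-only, 36581 sites of the NASH list and 36557 of the control list were shared, and 7906 were control-only. No measured value entered the rule beyond presence in a list, which itself depends on the authors' reproducibility threshold (IDR of 0.05).

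The groups were C57BL/6J mice on the NASH diet and C57BL/6J mice on the control diet. Kupffer cells, which are macrophages that reside in the liver, were sorted from both by high F4/80 and by surface Tim4. The NASH diet models non-alcoholic steatohepatitis, a fatty and inflamed liver. ChIP-seq, which sequences DNA bound by a chosen protein, was done with antibodies labelled LXR and 2 libraries per diet. Both libraries of a diet went into 1 list of reproducible sites, so each diet is a single value and no test between diets can be made. The sources used here do not say whether libraries came from separate animals, and give no age. The NASH LXR libraries are named NASH30 and the open-chromatin list is named for 20 weeks, so time on the diet may differ; the labels used here do not state it. The depth of the LXR libraries is unknown, and a longer list can reach weaker sites. Input libraries, made without an antibody, are labelled for LXR and P300 on both diets. The control diet alone has 2 further inputs labelled for LXR. Which input served each LXR list was not examined, and its part in the classes was not tested.

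LXR pairs with the retinoid X receptor on DNA and responds to oxidised cholesterol derivatives. Its best known targets export cholesterol (Abca1, Abcg1), carry lipid (Apoe) or drive fatty acid synthesis (Srebf1). In Kupffer cells LXR alpha, encoded by Nr1h3, is known as a factor that maintains cell identity, including Timd4, the gene of the sort marker Tim4.

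Promoter bases of 4 genes are shown first, because their LXR site at the gene start was present on 1 diet only. Each run is the 250 bases before the gene start from RefSeq (GRCm38.p6), 5′ to 3′ along the gene, with the bases under the LXR site in capitals. Gpnmb (chr6:49036268-49036517, plus strand) and H2-Aa (chr17:34287824-34288073, minus strand) had NASH-only sites with scores of 50 and 32 in the NASH list. Timd4 (chr11:46810549-46810798, plus strand) and Pcolce2 (chr9:95637378-95637627, plus strand) had control-only sites with scores of 151 and 39 in the control list.
Gpnmb: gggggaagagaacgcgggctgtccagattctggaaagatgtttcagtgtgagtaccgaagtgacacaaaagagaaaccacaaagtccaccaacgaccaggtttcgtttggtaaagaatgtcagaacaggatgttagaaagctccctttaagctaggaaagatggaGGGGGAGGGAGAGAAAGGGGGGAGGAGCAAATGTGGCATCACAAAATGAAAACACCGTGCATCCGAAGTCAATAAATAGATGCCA
H2-Aa: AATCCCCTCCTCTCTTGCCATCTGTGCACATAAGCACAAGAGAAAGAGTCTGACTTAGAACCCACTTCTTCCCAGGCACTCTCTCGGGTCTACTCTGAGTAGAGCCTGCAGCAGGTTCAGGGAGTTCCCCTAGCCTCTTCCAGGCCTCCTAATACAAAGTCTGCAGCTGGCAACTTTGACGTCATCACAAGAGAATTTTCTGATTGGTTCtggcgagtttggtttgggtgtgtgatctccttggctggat
Timd4: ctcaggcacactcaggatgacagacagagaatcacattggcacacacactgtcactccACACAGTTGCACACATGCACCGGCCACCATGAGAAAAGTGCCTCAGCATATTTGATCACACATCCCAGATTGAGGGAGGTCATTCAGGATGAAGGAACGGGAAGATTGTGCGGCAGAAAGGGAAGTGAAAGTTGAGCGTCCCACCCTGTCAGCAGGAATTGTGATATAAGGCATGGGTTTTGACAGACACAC
Pcolce2: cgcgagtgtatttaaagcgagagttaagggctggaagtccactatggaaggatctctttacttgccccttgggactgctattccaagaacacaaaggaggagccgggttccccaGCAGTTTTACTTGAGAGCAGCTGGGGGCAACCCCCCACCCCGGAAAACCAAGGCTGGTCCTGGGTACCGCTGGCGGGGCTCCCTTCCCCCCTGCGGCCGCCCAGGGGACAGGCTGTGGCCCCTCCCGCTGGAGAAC

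Of these runs, 85 bases lay under the NASH-only site at Gpnmb, a glycoprotein of lipid-laden macrophages, and 210 under that at H2-Aa, a chain of MHC class II. The control-only sites covered 192 bases at Timd4, a receptor for dying cells, and 136 at Pcolce2, an enhancer of collagen processing.

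Shorter stretches show letters that match a searched motif under an LXR site, with the match in capitals. The LXR element was searched as 2 AGGTCA repeats spaced by 4 bases, on both strands, with at most 2 mismatches. Its reverse complement was found under the NASH-only site at the inner start of Mmp12, a macrophage elastase (chr9:7347265-7347300, plus strand). At the Abca1 start, under a shared site, the search found no match, but a related form with GGTTA, 5 bases and GGTCA reads there on the strand opposite to the gene, so the capitals show its reverse complement (chr4:53159938-53159972, minus strand); that form was searched after these letters had been seen. At H2-Aa the letters TGACGTCA, the cyclic AMP response element of ATF and CREB factors, stood under the NASH-only site (chr17:34287880-34287907, minus strand).
Mmp12: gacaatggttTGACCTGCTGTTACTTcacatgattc
Abca1: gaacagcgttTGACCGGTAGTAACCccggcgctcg
H2-Aa: ctggcaacttTGACGTCAtcacaagaga

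Across 32817 RefSeq promoters of 300 bases, the repeat form was matched in 3.02%, the Abca1 form in 0.0488% and TGACGTCA in 1.79%. The repeat form was matched in 2.27% of 970 promoters with a NASH-only site, 2.16% of 7628 with a shared site, 1.41% of 1134 with a control-only site and 3.42% of 23025 without an LXR site. TGACGTCA was matched in 2.89% of NASH-only, 3.96% of shared and 2.82% of control-only promoters, against 0.977% of those without an LXR site. Base composition moved with this: the median GC content was 59.3% at NASH-only, 62.0% at shared and 61.7% at control-only promoters, against 49.7% without an LXR site, and its part in the shares was not tested. The AP-1 letters TGANTCA were in 7.53% of NASH-only, 4.85% of shared and 3.88% of control-only promoters, against 9.01% without a site. Their reversed letters, ACTNAGT, were in 4.43%, 4.22% and 4.94% of the NASH-only, shared and control-only promoters, against 6.88% without a site.

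Most LXR sites were common to both diets, and those of 1 diet were mainly weak. The NASH-only sites made up 29.3% of the NASH list (95% exact binomial interval 28.9 to 29.7), and the control-only sites 17.8% of the control list. Within the NASH list the median enrichment score, the authors' measure of signal, was 30 for NASH-only sites (quartiles 25 and 38) and 53 for shared sites (37 and 83). Within the control list it was 35 for control-only sites (30 and 45) and 66 for shared sites (46 and 102). The lowest scores listed were 19 in the NASH list and 24 in the control list, and no header or label states how the score was scaled. Scores were therefore read only within a list.

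**Figure D1:**
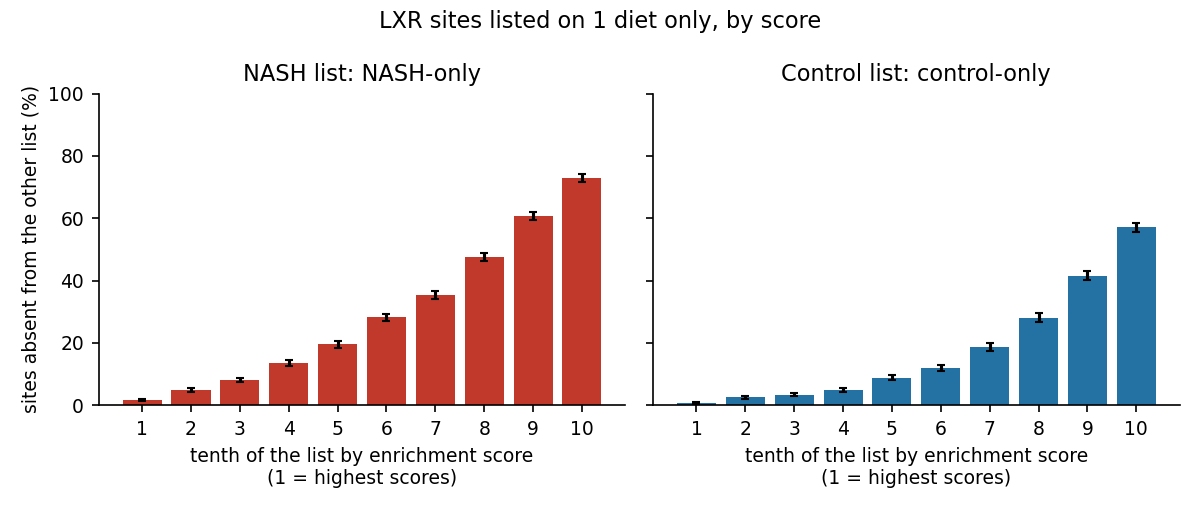
Share of LXR sites without a counterpart in the other list (y axis, percent of the sites in a decile) by decile, 1 of 10 equal parts by rank, of the enrichment score (x axis, 1 holds the highest scores), in the NASH list on the left and the control list on the right. Bars are shares and whiskers exact 95% binomial intervals, which cover counting error only. The share climbs from left to right in both panels, to 72.9% in the lowest NASH decile and 57.1% in the lowest control decile.

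The plot of sites without a counterpart by score decile shows how closely class and score went together. Each list stops at a threshold, so a weak site is more readily absent from the other list. The part of this in the climb was not tested. In the highest decile of the NASH list 88 of 5171 sites were NASH-only (1.70%), and in the lowest decile 3770 of 5171 (72.9%). In the highest decile of the control list 35 of 4447 sites were control-only (0.787%), and in the lowest 2537 of 4447 (57.1%). Across the 36581 shared sites of the NASH list, the score had a Spearman correlation of 0.825 with the score of the overlapping control site; sites share libraries, and this is a description.

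Distance to the other list was measured for the sites of each diet. The median NASH-only site had its nearest control site 4093 bp away, and the median control-only site had its nearest NASH site 2918 bp away, centre to centre. The nearest site of the other list lay within 1000 bp for 23.2% of NASH-only and 31.0% of control-only sites. Sites just under the threshold of the other list are not listed, so their part in the classes was not tested. An edge of the other list lay within 100 bp for 705 NASH-only sites (4.66%) and 545 control-only sites (6.89%). Overlapping pairs shared a median of 206 bp, and 178 shared sites overlapped by less than 50 bp (0.487%). Widths differed little, with medians of 239 bp for NASH-only, 230 bp for shared and 238 bp for control-only sites.

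Among the highest-scoring NASH-only sites, several stood beside a site of the other list. The top one, in Rab20, a small GTPase of phagosomes, scored 337 (chr8:11464428-11464646), with a control site 320 bp away. Sites 2916 bp from Pfpl and 23 bp from Pik3cd, the delta catalytic subunit of PI3-kinase, scored 240 and 226 and had control sites 312 and 305 bp away. The others stood farther off: Fbxo36 scored 228 (nearest control site 42180 bp away), Mink1 216 (6293 bp) and a site 47265 bp from Atf3, a stress-induced transcription factor, 216 (5660 bp, chr1:191230472-191230724). The Mink1 and Atf3 sites lay in windows open on the 20-week list only.

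The highest control-only site, scored 524, lay on chromosome 17 (chr17:39844631-39844883) 512 bp from a NASH site, and the second-ranked shared site, scored 604 and 537 in the NASH and control lists, lay next to it in an annotated non-coding RNA. Satellite sequence held the highest shared site (chr2:98667034-98667241, scores 1094 and 1040). Of the other leading control-only sites, those in Klf10, a zinc-finger factor, and Paqr5 scored 222 and 201 and had NASH sites 419 and 414 bp away. Intergenic sites with Cdh5 (369), Epha4 (240) and Kctd8 (216) as nearest genes stood 90839 bp or more from any NASH site. They lay 524203, 226431 and 373959 bp from these genes, in that order. Within 20000 bp, Cdh5 had 1 NASH-only, 4 shared and 0 control-only sites. Leading shared sites outside repeats scored 509 and 511 near Paqr9, 481 and 491 in St6gal1, a sialyltransferase, 472 and 471 near Trim25, a ubiquitin ligase, and 477 and 467 near Ptpn5, in the NASH and control lists in that order.

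Position set NASH-only sites apart from the others. Gene starts lay within 1000 bp of 13.3% of NASH-only sites (interval 12.7 to 13.8), 24.0% of shared sites and 23.5% of control-only sites. Median distance to the nearest gene start was 14541 bp for NASH-only, 10272 bp for shared and 10310 bp for control-only sites. By the annotation of the overlapping open window, 14.3% of NASH-only, 24.7% of shared and 26.5% of control-only sites were at promoters. Introns held 45.4% of NASH-only, 38.5% of shared and 37.1% of control-only sites, and intergenic sequence 34.4%, 31.9% and 29.5% of NASH-only, shared and control-only sites.

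Low score did not go with low promoter share in the same way on both diets. Within deciles of equal rank, NASH-only sites were at gene starts less often than shared sites in 10 of 10 deciles, with intervals apart in 8. In the lowest decile the shares were 13.7% for NASH-only and 25.4% for shared sites. In the control list, control-only sites were above shared sites in 7 of 10 deciles, with intervals apart in 3, and in the lowest decile the shares were 19.5% for control-only and 15.1% for shared sites. Intervals cover counting error only, since the sites of a list come from the same libraries.

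**Figure D2:**
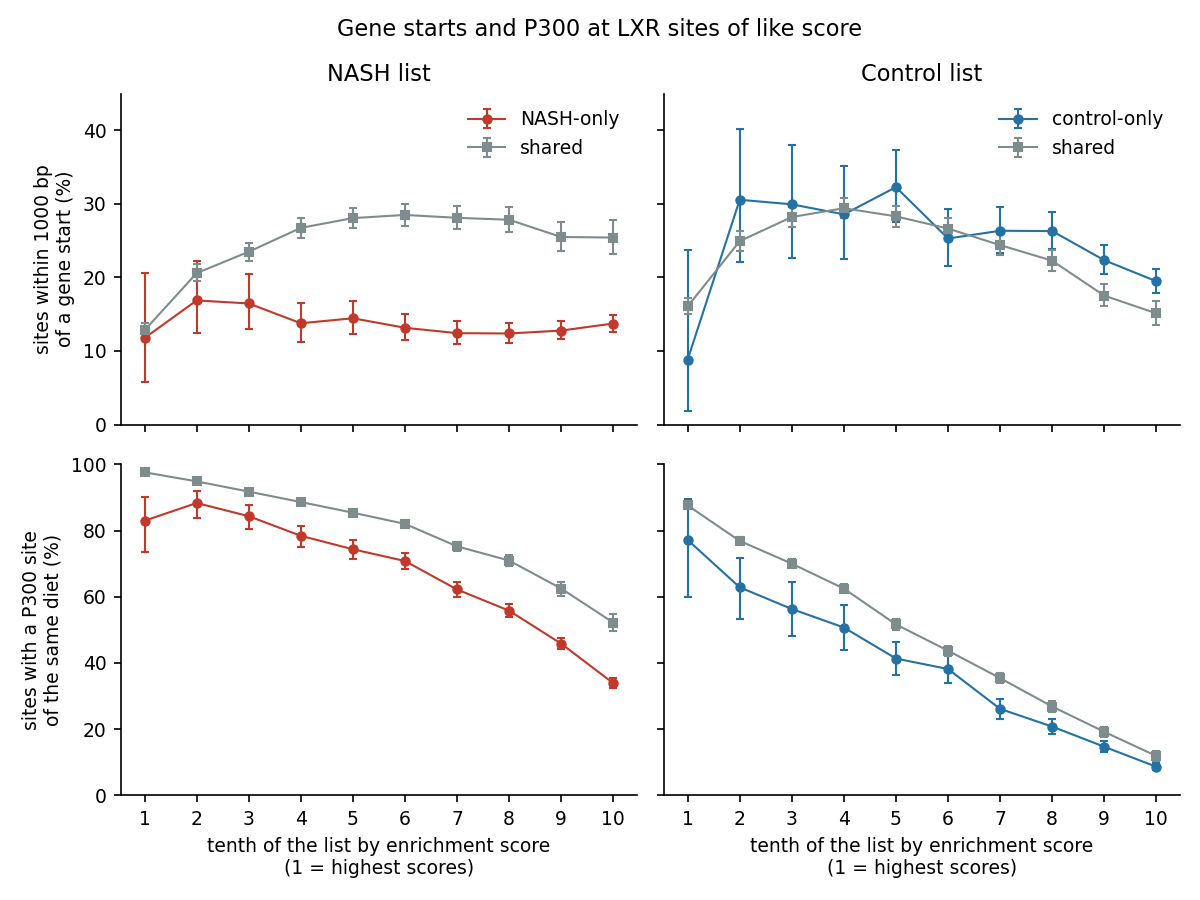
Share of LXR sites within 1000 bp of a gene start (upper row) and with a P300 site of the same diet (lower row), by decile of enrichment score (x axis, 1 holds the highest scores), for the NASH list on the left and the control list on the right. Circles are sites of 1 diet, squares shared sites, and whiskers exact 95% binomial intervals. In the NASH list the NASH-only points lie below the shared points in both rows; in the control list they do so for P300 alone.

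Open chromatin was recorded as 70300 windows that joined reproducible ATAC-seq peaks of a 20-week list and a control list. Such a window held 55.9% of NASH-only, 86.6% of shared and 62.5% of control-only sites. Of the NASH-only sites in a window, 21.8% were in windows of the 20-week list only, 59.1% in windows of both and 19.1% in windows of the control list only. Of the control-only sites in a window, 2.92% were in windows of the 20-week list only, 57.5% in windows of both and 39.6% in windows of the control list only. Shared sites gave 2.13%, 82.2% and 15.7% in the same order, and all windows 9.72%, 62.1% and 28.2%.

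P300, an acetyltransferase found at active enhancers, and ATF3 were listed on both diets. The P300 lists held 52628 sites on the NASH diet and 25219 on the control diet, and the ATF3 lists 38828 and 16109, and shares were higher with the NASH lists in every class. Sites of the NASH P300 list overlapped 54.2% of NASH-only, 84.7% of shared and 42.3% of control-only LXR sites. The control P300 list overlapped 10.5% of NASH-only, 53.3% of shared and 20.6% of control-only sites. ATF3 sites of the NASH list overlapped 42.7% of NASH-only, 60.0% of shared and 17.0% of control-only sites. The control ATF3 list overlapped 6.97% of NASH-only, 36.7% of shared and 9.66% of control-only sites. NASH-only sites thus stood above control-only sites in both NASH lists and below them in both control lists. At equal score decile, P300 of the same diet was less frequent at NASH-only than at shared sites in 10 of 10 deciles, and likewise less frequent at control-only sites in 10 of 10.

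**Figure D3:**
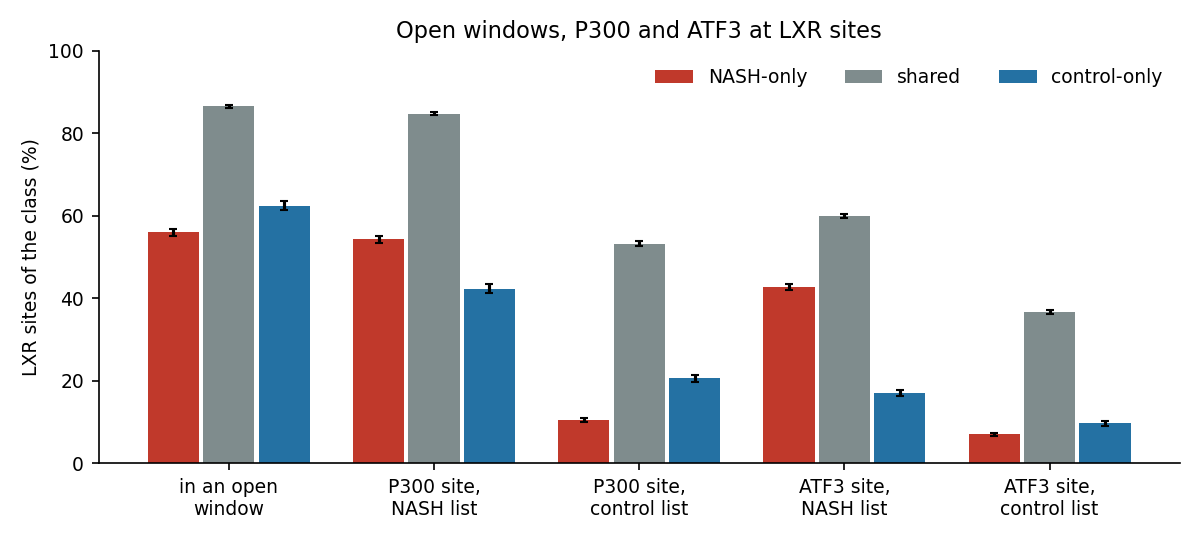
Percent of NASH-only, shared and control-only LXR sites (y axis) that overlap an open window, a P300 site or an ATF3 site of each diet by at least 1 bp (x axis). Whiskers are exact 95% binomial intervals; shared sites are those of the NASH list. Shared sites are highest in all 5 groups of bars, and NASH-only sites stand above control-only sites for both NASH lists.

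Genes were linked to every site within 20000 bp of their span. Of 19920 protein-coding genes, 8700 (43.7%) had a NASH-only site, 12977 (65.1%) a shared site and 6709 (33.7%) a control-only site. More NASH-only than control-only sites were found at 6406 genes (32.2%), and more control-only than NASH-only sites at 3380 (17.0%). Among the 14353 genes with any LXR site these shares were 60.6% with a NASH-only, 90.4% with a shared and 46.7% with a control-only site, 44.6% with more NASH-only and 23.5% with more control-only sites. Neighbouring genes share sites, and long genes collect more of them, so gene counts are not independent. Sgms1, a sphingomyelin synthase, had the most NASH-only sites, 25, beside 19 shared and 0 control-only. Ptprm, a receptor phosphatase, had the most control-only sites, 14, beside 2 NASH-only and 15 shared. Timd4 came next with 13 in a gene of 33548 bp, against 687644 bp for Ptprm.

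Kupffer cell identity genes all had LXR sites on both diets, and a few had many control-only sites. Of 31 genes, 24 had a NASH-only site (77.4%, all genes 43.7%), 31 a shared site (all genes 65.1%) and 26 a control-only site (83.9%, all genes 33.7%). More NASH-only sites were found at 15 genes (48.4%, all genes 32.2%) and more control-only sites at 12 (38.7%, all genes 17.0%). Of genes with any LXR site, 60.6% had a NASH-only and 46.7% a control-only site. More NASH-only sites were found at 44.6% of those genes, near the 48.4% here, and more control-only sites at 23.5%. Timd4 had 0 NASH-only, 3 shared and 13 control-only sites. Marco, a scavenger receptor, had 0, 1 and 6, and Pcolce2 0, 6 and 8, in the same order. Slc40a1, the iron exporter ferroportin, had 3, 6 and 6. Clec4f, a lectin restricted to Kupffer cells, had 5, 11 and 4, Cd5l, a secreted survival factor, 1, 13 and 2, and Spic, a factor of iron-recycling macrophages, 0, 4 and 1. Nr1h3 itself had 1, 9 and 1.

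At Timd4 the control-only sites ran along the whole gene. Its control-only sites scored 31 to 151 in the control list (median 68), and the highest covered the gene start (chr11:46810606-46810845). The 3 shared sites stood in introns with scores of 45, 51 and 21 in the NASH list, and 162, 213 and 107 at the overlapping sites in the control list. The control scores were in deciles 1, 1 and 2 of their list and the NASH scores in deciles 5, 4 and 10 of theirs. P300 sites overlapped 1 of 13 control-only sites in the NASH list and 7 in the control list, and ATF3 sites 1 and 6. Of these 13 sites, 9 lay in windows of the control list only, 1 in a window of both and 3 in none. Tim4 was also a sort marker. Its protein level on the sorted cells was not measured here, and the part of the sort in these site counts was not tested.

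The 1 shared site of Marco scored 40 in the NASH list (decile 6) and 219 in the control list (decile 1). Its control-only sites scored 38 to 101, and 3 of 6 overlapped a control P300 site while 0 of 6 overlapped a NASH one. At Pcolce2 the strongest site was shared and scored 418 in the NASH list and 453 in the control list, in the highest decile of both, while the 8 control-only sites scored 28 to 56. The strongest Pcolce2 site was thus listed on both diets. Csf1r, the receptor of macrophage colony-stimulating factor, had 4 NASH-only, 10 shared and 7 control-only sites, and the control-only ones scored 25 to 47.

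**Figure D4:**
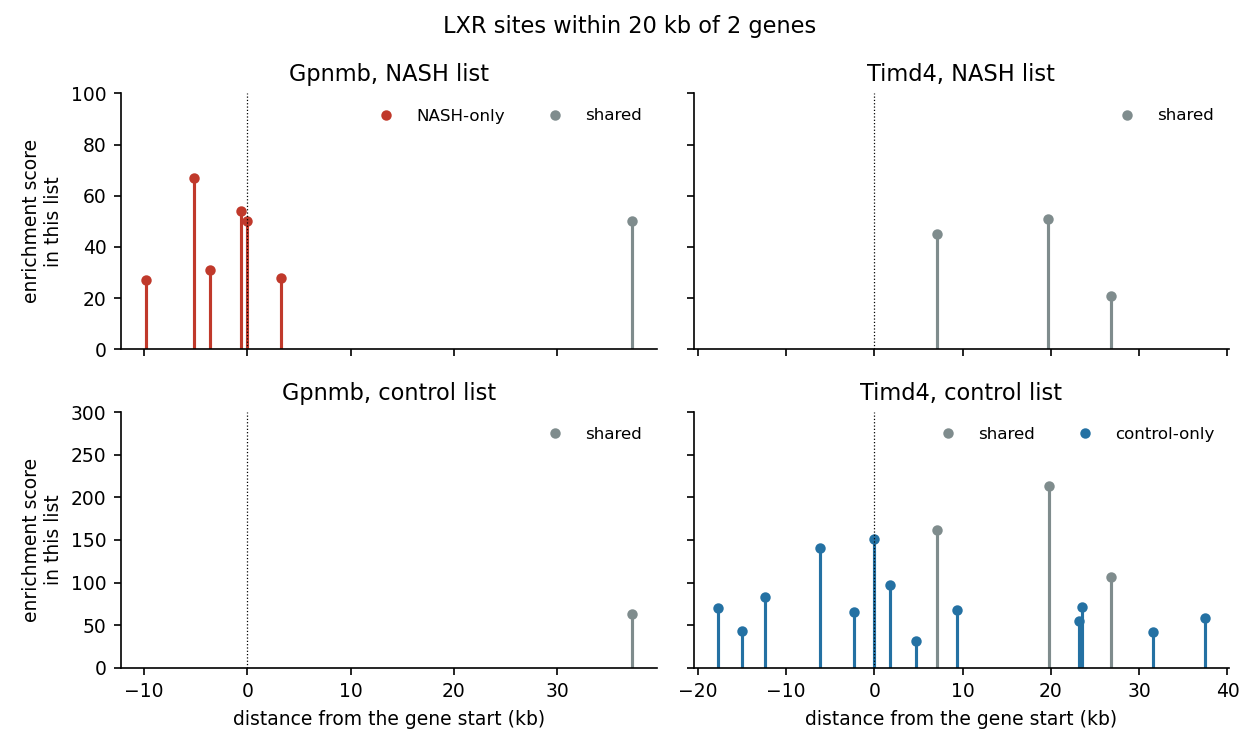
Enrichment score of each LXR site within 20000 bp of Gpnmb (left) and Timd4 (right) against its distance from the gene start in kb (x axis, dotted line at the start), in the NASH list (upper row) and the control list (lower row). The y axes differ between rows because scores are read within a list only. At Gpnmb 6 NASH-only sites stand around the start and the control list has 1 site far downstream; at Timd4 13 control-only sites span the gene and the NASH list has 3.

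Marker genes of macrophages in lipid-rich or scarred tissue had mostly NASH-only and shared sites. Of 27 genes, 25 had a NASH-only site (92.6%, all genes 43.7%, genes with any LXR site 60.6%). A shared site was found at 25 (92.6%, all genes 65.1%, genes with any site 90.4%). A control-only site was found at 12 (44.4%, all genes 33.7%), near the 46.7% of genes with any site. More NASH-only sites were found at 24 genes (88.9%, all genes 32.2%, genes with any LXR site 44.6%). More control-only sites were found at 1 (3.7%, all genes 17.0%, genes with any LXR site 23.5%). That gene was Ccr2, a monocyte chemokine receptor, with 0 NASH-only, 7 shared and 2 control-only. The list summed to 96 NASH-only, 150 shared and 16 control-only sites, counting a site once for each gene. Gpnmb had 6, 1 and 0, Mmp12 7, 4 and 0, and Cd9, a tetraspanin, 7, 8 and 1. Trem2, a lipid-sensing receptor, had 2, 3 and 0, Spp1, which encodes osteopontin, 2, 0 and 0, and Ctsd, a lysosomal protease, 10, 10 and 0. Cx3cr1, the fractalkine receptor, had 2, 10 and 1. The highest control-only scores of the list were at Anxa2 (85), Cd36 (84) and Lgals3 (64), read in the control list. These genes had 6, 3 and 1, then 5, 8 and 3, then 2, 7 and 1 sites.

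At Gpnmb the NASH-only sites scored 27 to 67 in the NASH list. P300 sites overlapped 5 of these 6 in the NASH list and 0 in the control list, and ATF3 sites 5 and 0. The 1 shared site, scored 50 in the NASH list and 63 in the control list, stood 37233 bp from the nearest gene start. At Mmp12 the NASH-only sites scored 24 to 82, 2 of them at annotated starts (chr9:7344248-7344472 and chr9:7347264-7347468) in windows of the 20-week list only. The 4 shared Mmp12 sites scored 91 to 116 in the NASH list and 44 to 93 in the control list. At Cd9, 5 of 7 NASH-only sites lay in windows of the 20-week list only, and the shared sites reached 313 in the NASH list and 235 in the control list. The strongest Trem2 site was shared and scored 229 and 219 in the NASH and control lists.

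MHC class II genes, which present antigen to CD4+ T cells, had NASH-only sites throughout. All 10 genes had a NASH-only site (all genes 43.7%), all 10 a shared site (65.1%) and 4 a control-only site, which is near the 33.7% of all genes. More NASH-only sites were found at 9 of these genes and more control-only sites at 0. H2-Aa had 11 NASH-only, 3 shared and 0 control-only sites and H2-Eb1 11, 5 and 0, many of them the same sites since the genes are neighbours. Their NASH-only sites scored 24 to 58 at H2-Aa and 22 to 58 at H2-Eb1. H2-Ab1 and H2-Ob had equal highest NASH-only scores (39), as did H2-DMb1 and H2-DMb2 (31). The 10 genes are therefore not independent. Cd74, the invariant chain, had 7, 3 and 0, and Ciita, the transactivator of the class, 6, 7 and 1. H2-DMa had 3, 14 and 3, and its highest control-only site scored 125 in the control list.

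The cholesterol and lipid transport targets of LXR had their strongest sites on both diets, and their NASH-only sites scored lower. Of 17 genes, 16 had a NASH-only site (all genes 43.7%), 17 a shared site (65.1%) and 12 a control-only site (33.7%). More NASH-only sites were found at 13 genes (76.5%, all genes 32.2%) and more control-only sites at 2 (11.8%, all genes 17.0%). Of genes with any LXR site, 44.6% had more NASH-only and 23.5% more control-only sites. The list had a NASH-only site at 94.1% of genes and a control-only site at 70.6%, against 60.6% and 46.7% of those genes. Abca1 had 6 NASH-only, 22 shared and 2 control-only sites. Its NASH-only sites scored 21 to 36 and its control-only sites 25 and 41, while its shared sites reached 318 in the NASH list and 338 in the control list. Abcg1 had 8, 16 and 0, with shared sites up to 351 and 297, and Apoe 3, 10 and 1, with shared sites up to 360 and 380. The neighbours Apoc1, Apoc2 and Apoc4 share most of the Apoe sites. Mylip, the ligase that degrades the LDL receptor, had 3, 3 and 2; its start carried a control-only site scored 73, and its strongest site was shared (313 and 343). Lpcat3, a phospholipid remodelling enzyme, had 4, 5 and 2, and Smpdl3a, a phosphodiesterase, 1, 8 and 3.

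Fatty acid synthesis and remodelling targets were near the share of genes with any LXR site. Of 13 genes, 9 had a NASH-only site (69.2%, against 60.6% of genes with any site), 12 a shared site (92.3% against 90.4%) and 5 a control-only site (38.5% against 46.7%). More NASH-only sites were found at 7 (53.8% against 44.6%) and more control-only sites at 3 (23.1% against 23.5%). Srebf1 had 3 NASH-only, 4 shared and 0 control-only sites, and its shared sites reached 378 in the NASH list and 408 in the control list. Scd2, a desaturase, had 3, 6 and 0 with shared sites up to 443 and 433. Mlxipl, the carbohydrate response factor, stood out with 0, 5 and 6, and the control-only sites scored 27 to 47. Me1, the malic enzyme, Lpin1, a phosphatidate phosphatase, and Elovl6, a fatty acid elongase, had 1 control-only site each, and that of Elovl6 (score 28) was its only site.

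Transcription factor and signalling lists are set beside the genes with any LXR site, of which 60.6% had a NASH-only and 46.7% a control-only site. The NF-kB list (69.2% and 46.2%) and the Notch list (64.3% and 50.0%) were near these shares, as was the NASH-only share of the TGF-beta and BMP list (65.0%). For AP-1, ATF and related factors, 20 of 25 genes had a NASH-only (80.0%) and 15 a control-only site (60.0%). More NASH-only sites were found at 11 (44.0%) and more control-only sites at 7 (28.0%), against 44.6% and 23.5% of genes with any site. Atf3 had 6 NASH-only, 7 shared and 0 control-only sites, Batf3, a related factor, 8, 11 and 0, and Nfe2l2, the oxidative stress factor, 6, 11 and 1. The control-only site of Nfe2l2 scored 112 in the control list, the highest control-only score among these factors. Of 26 inflammatory NF-kB genes, 18 had a NASH-only and 12 a control-only site. More NASH-only sites were found at 12 (46.2%) and more control-only sites at 7 (26.9%), near the same 44.6% and 23.5%. Traf1, a receptor adaptor, had 6, 1 and 0 and Tnfaip3, an NF-kB inhibitor, 6, 4 and 0, whereas Nlrp3, an inflammasome sensor, had 1, 12 and 4 and Il1b 0, 7 and 2. The highest control-only score among the NF-kB genes, 185 in the control list, was at Il1a (2, 8 and 1). Their highest NASH-only score, 92 in the NASH list, was at Nfkb2 (2, 3 and 1) and Il12b (5, 4 and 4).

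Of 20 TGF-beta and BMP genes, 13 had a NASH-only and 14 a control-only site, with more NASH-only at 9 and more control-only at 7. Smad3 had 6 NASH-only, 4 shared and 2 control-only sites, and Bmpr1a, a BMP receptor, 0, 0 and 3. Of 14 Notch genes, 9 had a NASH-only (64.3%) and 7 a control-only site (50.0%). More NASH-only sites were found at 7 (50.0%) and more control-only sites at 2 (14.3%). Rbpj, the Notch effector on DNA, had 5, 4 and 1. Among 20 nuclear receptors and cofactors, 15 had a NASH-only and 16 a control-only site, with more NASH-only at 9 and more control-only at 6. Rxra, the partner of LXR, had 5, 16 and 4, and Rara, a retinoic acid receptor, 3, 13 and 6.

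Markers of other liver and blood cells had NASH-only sites at 20.0% to 50.0% of the genes of a list, against 43.7% of all genes, and control-only sites at 0% to 40.0%, against 33.7%. Hepatocyte markers had a NASH-only site at 2 of 10 genes, Apoa2 and Hnf4a, a shared site at 4 and a control-only site at 0, and Alb and Apoa1 had none. Sinusoidal endothelium markers had them at 5, 5 and 4 of 10 genes, stellate cell markers at 2, 2 and 3 of 10, B cell markers at 2, 7 and 4 of 10, T and NK cell markers at 3, 6 and 1 of 9, and neutrophil markers at 3, 7 and 2 of 10, for NASH-only, shared and control-only sites. A binding site is not expression, so these counts do not measure other cells in the sort, and their part in the classes was not tested.

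H3K27ac, the acetylation of active promoters and enhancers, was measured in 2 libraries per diet, and its values did not enter the LXR lists. The sources used here do not say whether the H3K27ac and LXR libraries came from the same animals. The 4 H3K27ac libraries held 18749728 and 19231109 tags on the NASH diet and 9468035 and 22615879 on the control diet. Values are tags per window scaled to 10000000 tags per library. Windows with NASH-only LXR sites had median values of 3.73 and 3.64 in the NASH libraries and 3.17 and 2.65 in the control libraries. Windows with control-only sites had 3.73 and 3.12 in the NASH libraries and 6.34 and 5.31 in the control libraries. At shared sites the medians were 6.40 and 5.72 in the NASH libraries and 8.45 and 7.52 in the control libraries. By these medians over all windows NASH was higher at NASH-only windows and lower in the others, but 3.17 is the value of 3 tags in control library 1. The means over the same NASH-only windows overlapped between diets, at 10.2 and 9.32 in the NASH libraries and 10.2 and 9.49 in the control libraries. Over the tested NASH-only windows the medians overlapped too, with values of 13.3 and 12.0 in the NASH libraries and 13.7 and 11.9 in the control libraries.

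Each window was tested by limma-trend on log2(value + 1), with Benjamini-Hochberg adjustment over all 35947 windows kept by the filter on low values, and counted as called below an adjusted p of 0.05 where log2 moved by 1 or more. Over all tested windows 720 were higher in NASH (2.00%) and 1647 lower (4.58%). At windows with a NASH-only LXR site 261 of 3624 were higher (7.2%) and 91 lower (2.51%). Shared sites had 149 of 20330 higher (0.733%) and 711 lower (3.5%), and control-only sites 17 of 2463 higher (0.69%) and 237 lower (9.62%). Windows without an LXR site had 293 of 9502 higher (3.08%) and 608 lower (6.4%).

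The authors' scaling put the median change of all tested windows at -0.26 on the log2 scale. Relative to that median, the median change was 0.18 at NASH-only, -0.01 at shared and -0.10 at control-only windows. With TMM scaling, 1193 of all windows were higher (3.32%) and 902 lower (2.51%). Under it NASH-only windows had 355 higher and 43 lower, shared windows 349 and 349, and control-only windows 29 and 164. The balance at shared windows thus depended on scaling, while that at NASH-only and control-only windows kept its direction. Without NASH library 1 the NASH-only windows had 61 higher and 77 lower, and without NASH library 2 they had 56 and 29. Those higher calls were 1.48% and 1.35% of the NASH-only windows, against 0.484% and 0.432% of all windows in the same fits, and the lower calls 1.87% and 0.701%, against 3.28% and 1.68%. Without control library 1 they had 268 and 59, and without control library 2 they had 221 and 141. At control-only windows the calls without NASH library 2 or control library 1 were 4 and 21 higher against 108 and 118 lower.

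**Figure D5:**
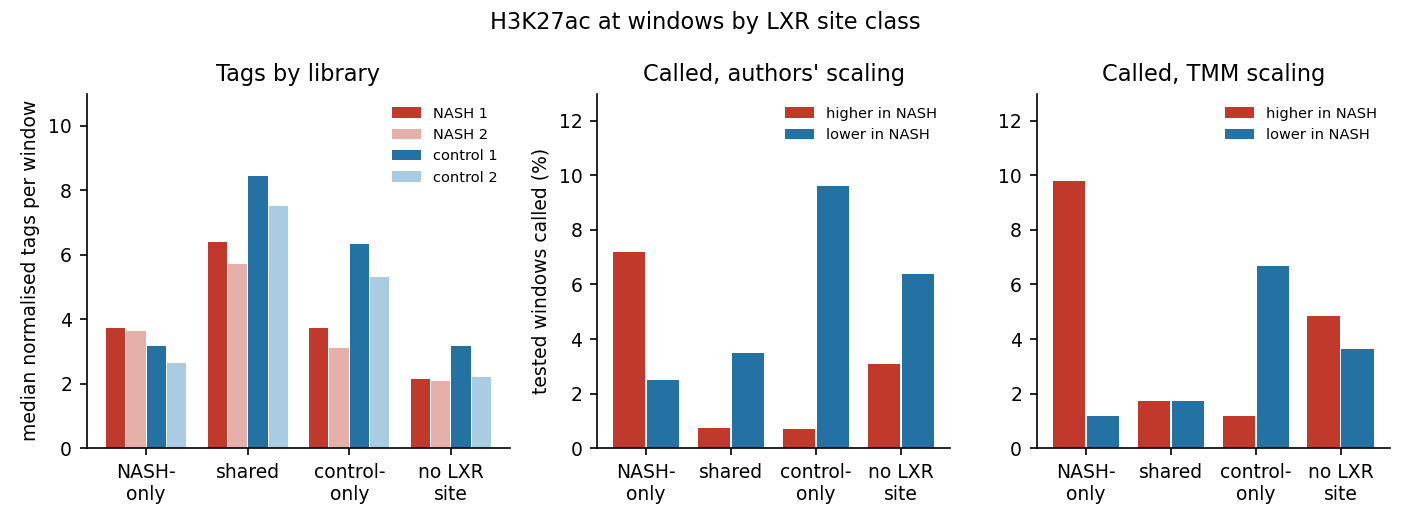
H3K27ac at windows grouped by the class of the LXR site they overlap. The left panel gives the median normalised tags per window (y axis) in each library; the other panels give the percent of tested windows called higher or lower in NASH with the authors' scaling and with TMM scaling. Higher calls exceed lower ones at NASH-only windows and lower calls exceed higher ones at control-only windows in both scalings, while at shared windows this holds for lower calls with the authors' scaling alone.

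The window at the Gpnmb start (chr6:49036511-49036711), which overlaps the NASH-only site shown above, had 30.9 and 36.4 normalised tags in the NASH libraries against 1.06 and 0 in the control libraries. Its log2 change was 4.59 (SE 0.53, adjusted p = 0.000154, limma). The control diet held 1 tag in all, so the ratio of 108 had an exact 95% counting interval of 19.1 to 4300. The other leading gains at NASH-only sites were in an intron of Xylt1, a proteoglycan enzyme (32.5 and 45.2 in NASH, 2.11 and 0 in control), in Myo3b, near Osbpl8, an oxysterol-binding relative, and at the start of Myo5a, a myosin motor. These had log2 changes of 3.11 to 4.48 (adjusted p 0.000202 to 0.000381, limma). With 1 or 2 control tags the size depends on the pseudocount: with 5 in place of 1 the changes were 2.81 at Gpnmb and 2.31 to 2.86 at the others, and by edgeR 6.67 and 3.63 to 6.19. The tag ratio was 62.5 at Xylt1 (counting interval 17.0 to 521), 38.4 at Osbpl8 (10.3 to 322) and 77.7 at Myo5a (13.6 to 3100). Without control library 1 or 2 the Xylt1 change was 5.30 or 3.66.

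NASH-only LXR sites also stood in windows that lost acetylation. The start of Impdh1, an enzyme of guanine nucleotide synthesis, had 6.40 and 6.24 tags in NASH against 35.9 and 32.3 in control, a log2 change of -2.26 (SE 0.37, adjusted p = 0.00157, limma). Windows near Ptprm, Spats2, Gm9047 and Ripk2 changed by -1.78 to -2.34, and that near Ptprm by -1.70 or -2.90 without NASH library 1 or 2. The call at Ripk2 ended without NASH library 2 (adjusted p = 0.0657, limma).

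At shared sites the strongest loss was in an intron of Pcolce2 (chr9:95681871-95682071), with 6.93 and 9.36 tags in NASH against 85.5 and 92.4 in control. Its log2 change was -3.31 (SE 0.30, adjusted p = 1.35e-05, limma), and the LXR site in it scored 26 in the NASH list, in decile 9, and 101 in the control list, in decile 3. Windows in Arl15, Fan1, a DNA repair nuclease, Mgst2, a leukotriene-synthesis enzyme, and Zfp619 fell by 2.71 to 3.30 on the log2 scale. Gains at shared sites were led by Pik3r6, a regulator of PI3-kinase gamma, with 61.9 and 48.9 in NASH against 5.28 and 5.75 in control (log2 change 3.11, SE 0.35, adjusted p = 9.66e-05, limma). Windows near 2010111I01Rik, Unc93a, Notch4 and Lat2 rose by 2.45 to 2.87 on the log2 scale.

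Control-only LXR sites had their leading losses in windows nearest to Pik3c3, St6galnac3, Rap1b, Mir30a and Dlc1. An intron of St6galnac3, a sialyltransferase, had 3.20 and 0.52 tags in NASH against 40.1 and 46.0 in control, a log2 change of -4.12 (SE 0.50, adjusted p = 0.000195, limma), or -4.85 and -3.39 without NASH library 1 and 2. St6galnac3 had 0 NASH-only, 3 shared and 8 control-only LXR sites. The start of Dlc1, known as a tumour suppressor, had 0 and 0.52 tags in NASH against 23.2 and 22.1 in control. The NASH diet held 1 tag there, so the ratio of NASH to control was 0.0117 with a counting interval of 0.000293 to 0.0675. All 10 LXR sites near Dlc1 were control-only. Gains at control-only sites were led by St8sia4, a polysialyltransferase, with 25.1 and 21.3 in NASH against 4.22 and 0 in control (log2 change 3.4, SE 0.63, adjusted p = 0.00371, limma). That change was 4.59 without control library 1 and 2.21 without control library 2. The next gains, at Ttc39c, Atp6v1c1, Plxnc1 and Stum, each lost the call when a NASH library was left out.

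By chromosome, the control-only share of the control list was 28.8% on X (204 of 709 sites, interval 25.5 to 32.3), against 15.9% to 19.8% over the autosomes. The NASH-only share of the NASH list was 30.8% on X and 26.5% to 32.1% over the autosomes. The labels used here give no sex for the mice.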

How the data were processed

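Kupffer cells of C57BL/6J mice were profiled by ChIP-seq on a NASH diet and on a control diet, with 2 libraries per mark and diet; groups follow the sample labels. The submitters' processing notes name Bowtie2, HOMER, DESeq2, mm10 and GRCm38, with no tool versions. The LXR, P300 and ATF3 sites were deposited as 1 list per diet that joins both libraries, at an IDR threshold of 0.05 for LXR, per the file headers. Each site has a deposited IDR score and an enrichment score. Per the file headers, H3K27ac values are a signal, tags per window scaled to 10000000, over merged ATAC-seq peaks.

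Sites were overlapped with bedtools 2.31.1 (at least 1 bp), gene starts came from RefSeq (GRCm38.p6, without chromosome 18), and genes took sites within 20000 bp. The 16 gene lists hold 257 names, 256 of them matched. Named sites were the 6 highest-scoring per class, 1 per nearest gene, without predicted genes. The rule for list genes took up to 4 with a NASH-only and up to 4 with a control-only site per list. It took those with the highest-scoring such sites, besides a set of known LXR and macrophage genes. Not all of them are described, and Cd163, Notch1, Nr1d1, Nr4a3 and Atf4 are among those left out. Named windows were up to 5 per class and direction with the smallest adjusted p. Other list genes, such as Pcolce2, Slc40a1, Csf1r, Ctsd and Cd74, the genes with the most sites and the promoters shown as sequence were chosen after their values were seen. Members and lists were chosen with earlier results of these data known.

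Because the deposited H3K27ac values are normalised, limma 3.58.1 (limma-trend, R 4.3.3) was used on log2(value + 1), with edgeR 4.0.16 filterByExpr and Benjamini-Hochberg adjustment, and the model was tested on simulated data. Multiplying by library totals gave whole tags within 0.02 for 100% of values. An edgeR quasi-likelihood test on those tags called 1357 windows higher and 1130 lower. Replicates had correlations of 0.887 (NASH) and 0.847 (control) and differed by more than sampling noise (chi-square per degree of freedom 1.93 and 2.36). The limit set by a count of 0, taken as 3 tags, was 1.60 and 1.56 in normalised units for the NASH libraries and 3.17 and 1.33 for the control libraries. Intervals are exact 95% binomial and, like floors, cover counting error only. P-values measure the spread between libraries, which may be technical. The peritoneal library was not analysed here. Motifs were searched in RefSeq promoters, a search added because no genome was used.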

Additional observations from a re-analysis of the deposited data

How the results depend on the processing

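Each diet has 1 LXR list, so class sizes rest on the list lengths. With lists of equal length, which makes both counts nearly equal by construction, 10023 sites were NASH-only and 10021 control-only. Reciprocal overlap of 50%, centres within 1000 bp and an IDR of at most 0.01 kept every class size within 1.5 times. Gene starts within 3000 bp gave 22.2% of NASH-only, 32.2% of shared and 32.6% of control-only sites, and an IDR of at most 0.01 gave 24.8% of shared and 28.3% of control-only sites within 1000 bp. Within 100000 bp, 13967 genes had a NASH-only and 12173 a control-only site, and 22 lipid-associated genes a control-only site. Shares with P300 were 49.6% (NASH-only) and 16.0% (control-only) at reciprocal overlap, and 69.1% and 32.2% at an IDR of at most 0.01; those with ATF3 were 39.6% and 8.54%, and 54.1% and 15.5%. For H3K27ac, higher and lower calls are given per class in that order. DESeq2 size factors gave 41 lower (NASH-only), 357 and 342 (shared) and 30 higher (control-only); TMM gave 43 lower, 349 and 349, and 29 higher. The edgeR test gave 393 and 57, 422 and 460, and 37 higher. Without a filter calls were 63 and 4, 22 and 73, and 0 and 48, over 69568 windows. Replicate numbers did not pair the libraries (correlation of deviations 0.0399); the replicate block gave 190 lower (NASH-only) and 287 and 1351 (shared). Leaving out each library in turn gave 56 to 268 and 29 to 141 (NASH-only), 28 to 241 and 270 to 1046 (shared), and 4 to 21 and 108 to 231 (control-only); the lone library was assumed to vary like the others. The cause of these moves was not tested. Of the values for named windows, 289 stayed called and 11 lost the call. The balance of higher and lower calls turned at NASH-only windows without NASH library 1 (61 and 77), and at shared windows with DESeq2 size factors (357 and 342). Motifs over whole sites were not run, for want of a genome. Depth limits windows with few tags, and the LXR depth is unknown.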
